A study of Mus musculus with 18 samples.

Results

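The AP-1 genes described here are the 7 genes of the Fos and Jun families, Fos, Fosb, Fosl1, Fosl2, Jun, Junb and Jund, chosen by name. Around them, all consensus ATAC-seq peaks with any base in the gene or in the 50 kb on either side were taken, 162 of 211682 peaks. No 2 of these genes shared a peak. ATAC-seq uses the Tn5 transposase to cut and tag open DNA, and a peak is a stretch where cuts pile up.

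The study knocked down Opa1, a GTPase needed for fusion of the inner mitochondrial membrane, and Atf4, a transcription factor that drives the integrated stress response, in primary cortical neurons from CD1 mouse embryos of day 14.5 to 15. The cultures were given cytosine arabinoside, which kills dividing cells, at 2 µM, and lentiviral short hairpin RNAs on day 6, and they were taken on day 11. The 18 samples form 4 groups: a control hairpin with a scrambled hairpin (5 samples), the control with the Atf4 hairpin (3), the Opa1 hairpin with the scrambled (5), and the Opa1 with the Atf4 hairpin (5). All groups thus carry lentivirus and 2 hairpins, and the labels do not say whether the samples of a group came from separate cultures. The file analysed holds a single peak list with no column for a sample or group. No comparison between knockdowns could be made from it, the depth of the samples is unknown, and every value below is a single value without replicates. The label of these genes as activity-induced is background knowledge, since no stimulus is part of the design and a peak does not measure transcription.

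AP-1 is a dimer of basic leucine zipper proteins. Fos family proteins pair with Jun family proteins, while Jun proteins can also pair with each other, and the dimer binds the sequence TGANTCA. In neurons, synaptic activity switches on Fos, Fosb and Junb within minutes through kinases that act on CREB and on serum response factor at the promoter, and Fos is known for a set of activity-regulated enhancers before and after the gene. Fosl1 and Fosl2 encode Fos relatives that lack the strong activation domain of Fos, and Jund is the member best known for steady expression.

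Promoter sequences show where the start of each gene lay relative to open chromatin. RefSeq (GRCm38.p6) gave a window of 300 bases, 250 before and 50 past the start, for 6 members, and none was used for Fosl1. The Fosb window was set on a start at 19310045, which lies inside the outermost end at 19310118 used for its peaks. Whole windows lay under a peak for 4 of the 6 (Fos, Fosb, Jun and Junb), as did 50.8% of 21263 promoter windows of coding genes. Of the Fosl2 window 65 bases were under a peak, and of the Jund window 0. The windows of Fos, Fosb and Junb, genes known for rapid induction, and of Jund, which no peak touched, are shown 5′ to 3′. Capitals mark matches to the motifs described next.
Fos (chr12:85473640-85473939, plus strand): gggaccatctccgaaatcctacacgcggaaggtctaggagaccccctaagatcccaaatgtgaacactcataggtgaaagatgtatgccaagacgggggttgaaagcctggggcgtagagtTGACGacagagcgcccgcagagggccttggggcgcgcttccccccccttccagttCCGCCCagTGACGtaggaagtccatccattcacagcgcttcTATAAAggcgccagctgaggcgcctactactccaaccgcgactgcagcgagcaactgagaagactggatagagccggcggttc
Fosb (chr7:19309996-19310295, minus strand): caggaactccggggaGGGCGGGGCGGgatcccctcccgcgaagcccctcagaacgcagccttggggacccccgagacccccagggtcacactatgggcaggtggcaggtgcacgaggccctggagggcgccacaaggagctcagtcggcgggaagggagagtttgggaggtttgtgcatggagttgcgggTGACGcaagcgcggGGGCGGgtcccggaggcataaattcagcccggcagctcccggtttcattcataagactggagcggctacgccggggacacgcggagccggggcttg
Junb (chr8:84978699-84978998, minus strand): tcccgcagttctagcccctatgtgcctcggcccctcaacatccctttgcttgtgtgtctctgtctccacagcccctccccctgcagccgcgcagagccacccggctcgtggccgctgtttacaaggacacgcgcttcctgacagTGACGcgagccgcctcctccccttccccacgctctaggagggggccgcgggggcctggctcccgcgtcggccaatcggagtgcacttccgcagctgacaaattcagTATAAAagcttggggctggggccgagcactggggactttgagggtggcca
Jund (chr8:70697489-70697788, plus strand): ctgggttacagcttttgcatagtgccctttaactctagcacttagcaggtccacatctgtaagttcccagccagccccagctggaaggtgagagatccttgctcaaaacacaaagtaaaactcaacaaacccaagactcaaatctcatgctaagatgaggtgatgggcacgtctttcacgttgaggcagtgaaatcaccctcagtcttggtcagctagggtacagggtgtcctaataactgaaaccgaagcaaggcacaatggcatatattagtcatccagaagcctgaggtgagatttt
The printed Fos, Fosb and Junb windows held 20, 25 and 21 CpG dinucleotides, against a median of 13 over coding gene promoters, and were 58.7%, 68.3% and 65.3% G or C. The Jund window differed from them, with 3 CpG and 46.7% G or C, values that 18.1% and 20.6% of promoters fell below. It is set on the outermost RefSeq start, and the nearest Jund peak begins 490 bp past that start. Which start these cells use was not tested, so the window may not be the promoter in use. Jun had 15 CpG and Fosl2 had 32.

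Searched on both strands, the full cAMP response element TGACGTCA, the site TGANTCA that AP-1 itself binds, the CArG box bound by serum response factor and the composite site TGATGCAA bound by C/EBP and ATF proteins were in 0 of the 6 windows. They were in 2.23%, 6.99%, 1.52% and 0.865% of all coding gene promoters. The GC box GGGCGG was in the windows of Fos, Fosb, Fosl2 and Jun (46.2% of promoters) and the TATA box TATAAA in those of Fos and Junb (12.6%). In Fos the TATA box began 33 bases before the start, and in Junb at the first base of the RefSeq transcript. The core TGACG of the cAMP response element was in 3 of the 6 windows, against 23.6% of promoters. It was searched after the sequences had been seen, and it can lie within TGACGTCA. It began 129 and 66 bases before the start in Fos, 60 in Fosb and 106 in Junb. For Fosb this is counted from the window's start at 19310045, not from the outermost end at 19310118. A match is only a run of letters, and sites outside the 300 bases were not searched.

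Each of the 7 genes had a peak within 1000 bp of an outermost end, as did 70.4% of 21774 protein-coding genes, so their having one does not set them apart. Each had one of at least 1000 bp, as did 44.5%. The widest end peak of a member had a median of 1498 bp, against 1133 bp over the coding genes that had an end peak.

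At the start of transcription, Fos had a peak of 1420 bp (chromosome 12, 85473416 to 85474835) and Junb also had 1420 bp (chromosome 8, 84977632 to 84979051). Jun had 1385 bp (chromosome 4, 95051649 to 95053033), which also lay over the start of the non-coding gene Junos on the other strand. The start peak of Fosb was the narrowest, at 602 bp (chromosome 7, 19309944 to 19310545). A wider Fosb peak of 1512 bp lay inside the gene, 1199 bp past the start (19307408 to 19308919). The start base was under a peak in these 4 of the 6 genes with a known strand, against 55.9% of 17492 such coding genes.

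Fosl2 and Jund were the exceptions. The Fosl2 start peak of 1320 bp (chromosome 5, 32134967 to 32136286) stopped 186 bp before the start. That of Jund, 1498 bp (chromosome 8, 70698229 to 70699726), began 490 bp past the outermost RefSeq start and lay wholly within the gene of 2878 bp. All 6 genes had a peak within 1000 bp of the start, against 64.7% of coding genes. For Fosl1, without a strand in the table, a peak of 1088 bp lay over the lower-coordinate end (chromosome 19, 5447352 to 5448439). Jun and Junb each had a second, narrower peak before the start, of 421 bp at 850 bp and of 582 bp at 953 bp.

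**Figure D1:**
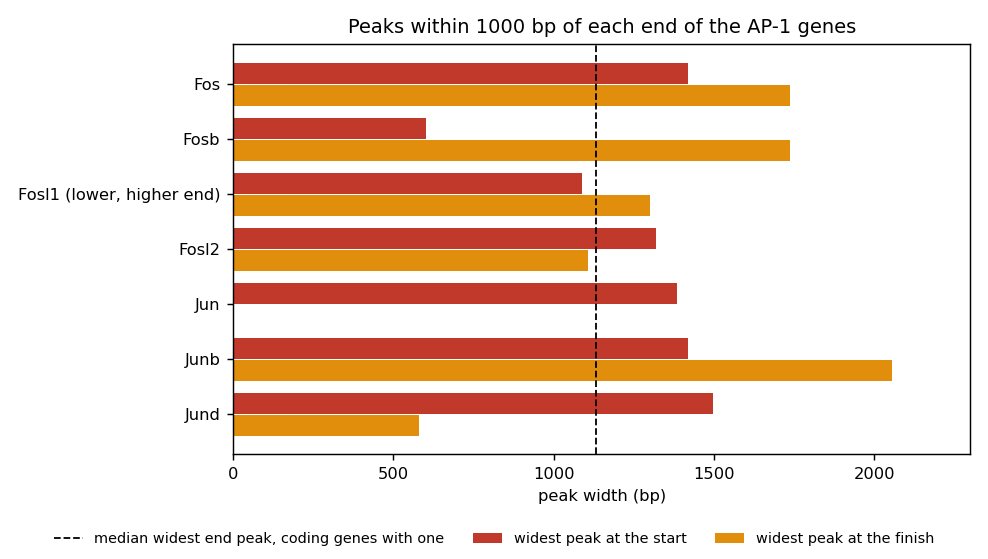
Width in bp of the widest peak within 1000 bp of the start (red) and the finish (orange) of each AP-1 gene, each peak counted at its nearer end. The dashed line is the median of 1133 bp for the widest end peak of coding genes that have one. The finish bar is the longer in Fos, Fosb and Junb and is missing in Jun, and for Fosl1 the bars are the lower- and higher-coordinate ends.

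Open chromatin also lay at the finish of transcription of most members. Of the 6 genes with a known strand, 5 had a peak within 1000 bp of the finish and nearer to it than to the start, against 23.7% of 17492 coding genes and 23.2% of those no longer than Fosl2, the longest member at 21369 bp. Such a peak was at least 1000 bp wide in 4 of them, against 4.85% of coding genes and 5.76% of those no longer than Fosl2. This measure was chosen after the peaks had been seen, and no test was made of it. All 6 genes had a start peak, and of the 11325 coding genes with one, 3284 also had a finish peak. Genes were not matched to each member in length.

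The finish peak of Junb was the widest end peak of the family, at 2055 bp (chromosome 8, 84974835 to 84976889). It began 20 bp past the finish of Junb and lay between that gene and Prdx2, a peroxiredoxin gene that ends at 84974811. Fos had 1737 bp (chromosome 12, 85477290 to 85479026), from 16 bp past its finish, with no other gene end within 1000 bp. A further Fos peak of 706 bp lay inside the gene, 637 bp before the finish. Fosb had 1738 bp (chromosome 7, 19301144 to 19302881) over its finish, and the non-coding gene Gm26802, on the same strand, starts nearby at 19300793. Fosl2 had 1107 bp (chromosome 5, 32158002 to 32159108), from 162 bp past its finish. Jund had a narrower one of 580 bp (chromosome 8, 70700524 to 70701103) over its finish, shortly before Iqcn begins at 70701321, and another of 194 bp.

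Jun had none, and its nearest peak inside the gene, of 283 bp, was 1580 bp from the finish. At the higher-coordinate end of Fosl1 a peak of 1301 bp began 716 bp past the gene, over the start of Ccdc85b. In Fos, Fosb and Junb the finish peak was wider than the start peak, by 1.22, 2.89 and 1.45 times. This was 3 of the 5 members with a peak at both, against 22.3% of 3284 coding genes with both. With peaks near any end of another gene left out, 3 of the 6 kept a finish peak (Fos, Fosl2 and, through its peak of 194 bp, Jund), against 15.7% of coding genes.

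**Figure D2:**
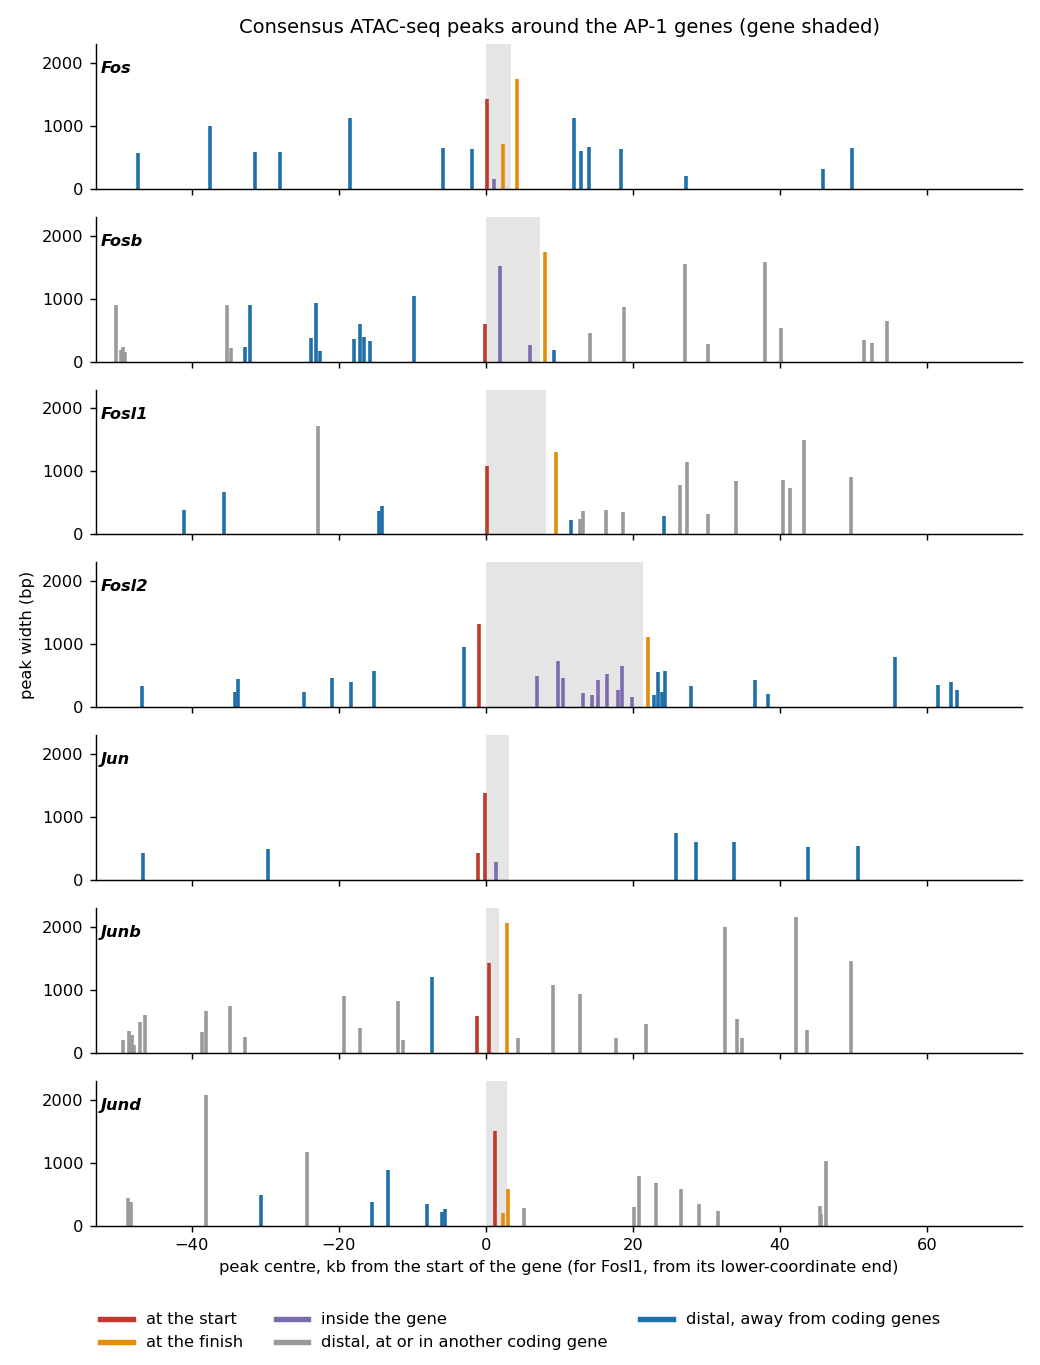
Each vertical line is a peak at its centre, in kb from the start of the gene (positive past the start, gene shaded), with its height giving the width in bp. Blue peaks are distal and away from coding genes: all 14 distal peaks of Fos are blue, and 1 of 26 at Junb. Fosl1 is drawn from its lower-coordinate end, with its lower- and higher-coordinate end peaks in red and orange.

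Distal peaks, those outside the gene and more than 1000 bp from both ends, numbered 131. Of these, 39 were within 1000 bp of an end of another coding gene and 28 inside one, which leaves 64 away from coding genes. The genes divided in this respect. Fos, Fosl2 and Jun had no other coding gene within 50 kb, and all of their 14, 19 and 7 distal peaks were away from coding genes. Junb had 8 coding neighbours, Fosb 7, Fosl1 11 and Jund 5, and at Junb 12 distal peaks were at an end of another coding gene and 13 inside one.

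Around Fos, 7 distal peaks lay before the start and 7 past the finish. Those before the start were, from the nearest, 637 bp wide at 1486 bp from the start, 642 bp at 5419 bp, 1119 bp at 17825 bp, 577 bp at 27689 bp, 585 bp at 31009 bp, 1002 bp at 36945 bp and 572 bp at 46956 bp. The widest of these (chromosome 12, 85454947 to 85456065) lay inside the non-coding gene Gm38543, and that of 1002 bp at an end of the non-coding gene Gm40477. Past the finish, the first distal peak was also the widest, at 1124 bp (85485377 to 85486500), 8103 bp from the finish. It opened a group of 3, in which peaks of 604 and 664 bp followed after gaps of 78 and 384 bp. Further out lay peaks of 633 bp at 14698 bp from the finish, 211 bp at 23735 bp, 316 bp at 42315 bp and 648 bp at 46166 bp. The nearest peaks outside the window were 52398 bp before the start (629 bp wide) and 62261 bp past the finish (177 bp wide).

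The distal peaks of Fos were wide. Their median was 635 bp, and 12 of 14 were at least 500 bp, against a median of 412 bp and 34.6% at least 500 bp among 89366 nuclear peaks away from coding genes. At Jun 5 of 7 reached 500 bp, with a median of 537 bp. At Fosl2 only 5 of 19 did, with a median of 402 bp, so the width was not shared by all 3 members that lack coding neighbours. Where the known Fos enhancers lie in this build was not given in the sources used here, so no peak is matched to one.

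Fosb, which encodes FosB and its shorter splice form, had 26 distal peaks. Before its start 10 peaks lay between genes, up to Ercc1, a DNA repair gene. The nearest was 1046 bp wide at 9248 bp from the start (chromosome 7, 19319366 to 19320411). Between 15510 and 17700 bp from the start there were 4 peaks of 334 to 602 bp, and between 22378 and 23619 bp 3 peaks of 166 to 938 bp. The last 2, of 904 and 229 bp, were at 31605 and 32583 bp. Past the finish the nearest distal peak, of 188 bp at 1799 bp, lay over the start of Gm26802. The widest distal peak of the window, 1589 bp (19271284 to 19272872), lay over an end of Vasp, which encodes an actin regulator, 29824 bp past the finish.

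At Fosl2 10 peaks of 162 to 738 bp lay inside the gene, more than 1000 bp from both ends, the first of them 6788 bp past the start. The nearest distal peak before the start was also the widest, 955 bp at 2529 bp (chromosome 5, 32132989 to 32133943). Past the finish 4 peaks of 191 to 574 bp followed within 2801 bp, the nearest at 1432 bp. The window held both peaks of the family whose score, as the authors gave it, was below the ceiling of 1000, at 291.851 (32111719 to 32111954) and 296.815 (32150896 to 32151092). The nearer end of a coding gene, Babam2, is 51522 bp before Fosl2, just outside the window.

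Fosl1 had 19 distal peaks, 6 of them away from coding genes. Nearest on the lower-coordinate side were neighbours of 448 and 372 bp at 13821 and 14340 bp (chromosome 19, 5433430 to 5433877 and 5432987 to 5433358). The nearest on the higher-coordinate side was 236 bp wide, 3194 bp from the gene. The widest, 1721 bp (5423979 to 5425699), lay over the neighbouring starts of Drap1, a transcriptional corepressor gene, and AI837181.

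Jun had the emptiest surroundings. No peak lay between its start peaks and a peak of 491 bp 29323 bp before the start (chromosome 4, 95081545 to 95082035), which was inside Junos, as was one of 435 bp at 46426 bp. Past the finish the nearest distal peak was also the widest, 743 bp at 22348 bp (95025946 to 95026688). A further 4 peaks of 521 to 600 bp lay beyond it, up to 47160 bp from the finish.

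Around Junb a single distal peak was away from coding genes. It was 1205 bp wide, 6680 bp before the start (chromosome 8, 84985428 to 84986632), in the stretch between Junb and Hook2. Past the finish the nearest distal peak was 240 bp wide at 2391 bp, in Prdx2 and within 1000 bp of its end. The widest was 2161 bp (84935518 to 84937678), inside Mast1, a kinase gene. Jund had 6 distal peaks away from coding genes, all before the start. The nearest, of 266 and 213 bp at 5448 and 5764 bp, lay near an end of the non-coding gene Gm39191, and so did one of 887 bp at 12809 bp. Past the finish the nearest was 274 bp wide at 2226 bp, inside Iqcn. The widest of the window, 2068 bp (70658744 to 70660811), was over an end of Pgpep1, a peptidase gene.

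**Figure D3:**
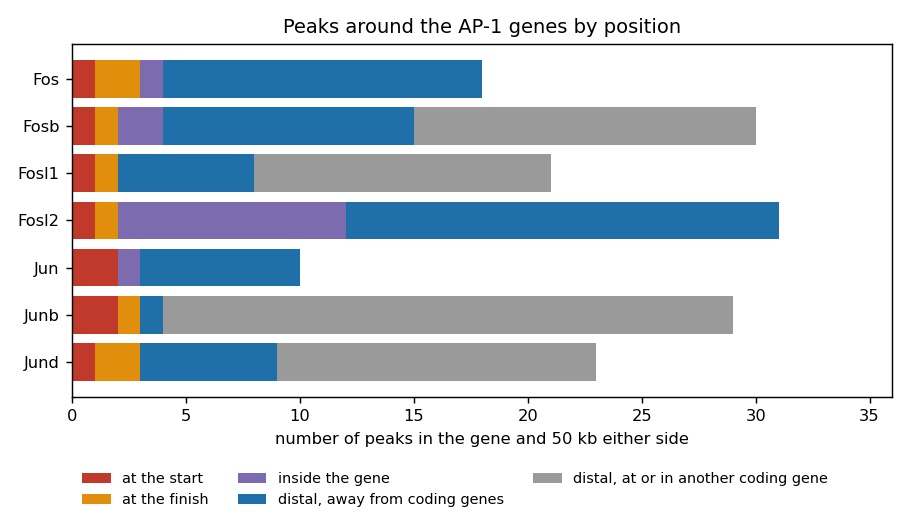
Number of peaks in each AP-1 gene and the 50 kb on either side, split by position, with totals from 10 (Jun) to 31 (Fosl2). Distal peaks at or in another coding gene (grey) are absent at Fos, Fosl2 and Jun and form most of the bar at Junb.

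Counted over the whole window, Fosl2 had 31 peaks, Fosb 30, Junb 29, Jund 23, Fosl1 21, Fos 18 and Jun 10. The median of 23 stood beside 14 for all coding genes (quartiles 7 and 21) and 11 for the 12159 no longer than Fosl2. Jun alone was below the median of all coding genes. The neighbours in this order from Fosl2 to Junb differed by single peaks, and without replicates no order among them can be read. Summed peak widths came to 20.9% of the length of the Junb window, more than in 99.9% of coding genes. At Fosb they came to 17.5%, more than in 99.0%. Peaks were summed whole, so any part past a window's edge is included, as with the last Fosb peak (19359906 to 19360800). Junb had 8 coding neighbours and Fosb 7, against a median of 3 over all coding genes, and these ranks are not matched for that. The sums were 12.9% at Fos, 12.03% at Fosl2, 13.9% at Fosl1, 13.2% at Jund and 5.83% at Jun, against a median of 5.76%.

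The members without coding neighbours were also set beside genes like them in this respect. Among the 1060 coding genes no longer than Fosl2 that had no other coding gene within 50 kb, the median was 2 peaks (quartiles 0 and 9). Fosl2 had more peaks than 99.8% of them, Fos more than 93.4% and Jun more than 76.5%. Only 418 of the 1060 had a peak within 1000 bp of an end, as Fosl2, Fos and Jun all did. The ranks thus partly set genes with an open end beside genes without one. This set was chosen after the data had been seen, and Fosl2 belongs to it only at a flank short of Babam2.

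**Figure D4:**
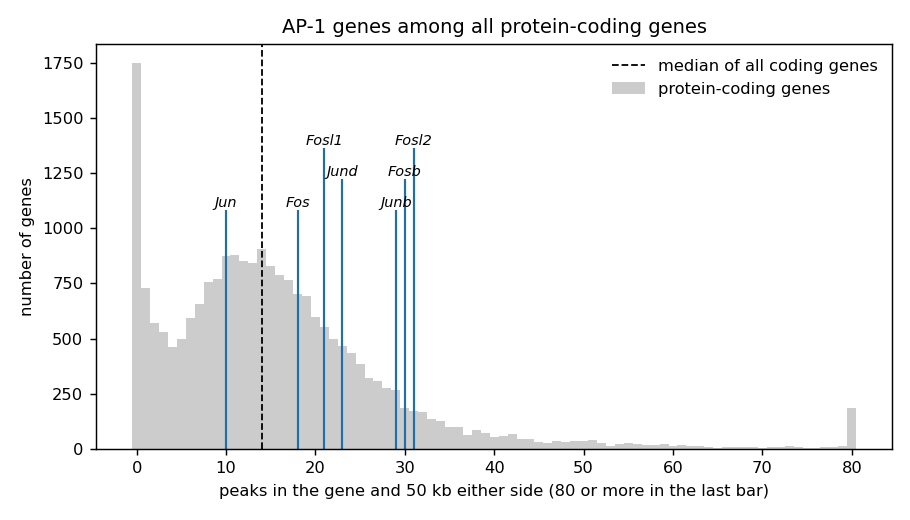
Histogram of the number of peaks in the gene and 50 kb either side over 21774 protein-coding genes (grey), with the AP-1 genes as blue lines whose height has no meaning. Of the 7, 6 lie to the right of the dashed median of 14 peaks, and Jun is at 10.

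Genes that act with AP-1 were set beside it. Of 10 dimer partners of the family, 9 had a peak within 1000 bp of an end (70.4% of coding genes), with a median of 17.5 peaks per window. The widest were at Jdp2 (2106 bp), a repressor that pairs with Jun, and at Batf3 (1595 bp), and Batf2 had none. A finish peak was present at 5 of 7 partners with a known strand (23.7% of coding genes). These were 242 to 615 bp wide, so none reached 1000 bp, whereas 4 of the 6 AP-1 genes had a finish peak of that width. Of 20 genes of the pathway from synaptic activity to these promoters, 19 had an end peak, with a median of 23 peaks per window. The widest were at Ep300 (1663 bp), a histone acetyltransferase, and at the CREB relatives Crem (1544 bp) and Atf1 (1461 bp), and the calcium-dependent kinase gene Camk4 had none. A finish peak was present at 5 of the 16 pathway genes with a known strand, against 23.7% of coding genes. The widest of these was 1176 bp. Both lists were drawn up with earlier results of these data known.

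Markers of the labelled cell type were checked in the same way. All 6 neuron markers had an end peak, against 70.4% of coding genes. Of 9 markers of other cells 2 did, Gfap of astrocytes (1315 bp) and Cx3cr1 of microglia (386 bp), both at the finish of the gene. Among markers with a known strand, the start base was under a peak in 5 of 5 neuron markers and 0 of 7 markers of other cells (55.9% of coding genes). A finish peak was present at 3 of the 5 neuron markers (780, 1138 and 1530 bp) and 2 of the 7 others, against 23.7% of coding genes. Finish peaks of at least 1000 bp were thus not confined to the AP-1 genes. No end peak was found at Aldh1l1 and Aqp4 of astrocytes, Aif1 and P2ry12 of microglia, Mag and Mog of oligodendrocytes or Pecam1 of endothelium. An end peak does not count cells, and the part other cells have in the AP-1 peaks was not tested.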

How the data were processed

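The 18 ATAC-seq samples, sequenced as 50 bp read pairs (from the labels), are represented by 1 deposited consensus list in mm10. Its peak names point to MSPC, which merges replicate calls. MACS2, deepTools and MultiQC are named, unversioned, in the submitters' processing notes. Aligner, read shifting, filters, thresholds and the choice of samples were not given in the sources used here. Per peak, the authors' deposited score stood at its ceiling of 1000 for 98.5% of peaks and was used only as an alternative filter.

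Genes were placed with RefSeq's annotation of GRCm38.p6 (mm10). Genes on scaffolds or unplaced (365) were left out. Strand came from the RefSeq promoter table and was known for 17492 of 21774 nuclear coding genes. Start and finish are the outermost ends for all peak distances. Promoter windows and motif distances use the start in the RefSeq promoter table, which for Fosb lies inside the outermost end. Peaks counted by any overlap, distances run to the nearest edge, and a peak near both ends counted at the nearer. No test was run, because there are no values per sample, and members, lists and tests were chosen with earlier results of these data known. Percentages of coding genes are descriptions. All members are named, with the end peaks, the nearest and the widest distal peaks of each, every distal peak of Fos, and of the other lists the 3 widest and those without a peak, of which 1 gene is not reported here. Interval counts were tested on simulated data and by a direct scan. Software was matplotlib 3.10.9, pandas 2.3.3, numpy 2.4.6 and Python 3.11.15.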

Additional observations from a re-analysis of the deposited data

How the results depend on the processing

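With a flank of 25 kb the AP-1 windows held 98 peaks, 67 of them distal, with a median of 14 per gene, and with 100 kb they held 275 and 244 with a median of 43. Over all coding genes the medians were 8 and 25, and 6 of the 7 members stood above them at each flank. With peaks of at least 500 bp alone the windows held 80 peaks, with a median of 11, and 15 of the 18 at Fos were kept. End windows of 500 and 2500 bp left 7 of 7 members with an end peak, and 6 had a peak over the end itself, all but Fosl2. The count of members with a finish peak was 5 in both windows and 3 with peaks near another gene's end left out, a choice made after the data were seen. No paired analysis was possible because the list has no column for a sample, and for the same reason no replicate could be left out. Depth per sample is unknown, so a stretch without a peak may be closed or below what these libraries detect, and whether peaks of 1 group alone were listed is not known.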
